A study of Mus musculus with 4 samples.

Results

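Mediator is the large multi-subunit coactivator that carries signals from DNA-bound transcription factors to RNA polymerase II, and the genes that encode its subunits were followed here in mouse embryonic stem cells depleted of Kdm5b. The members were all loci whose RefSeq identifiers name a Med gene with a number, together with the kinase module genes Cdk8, Cdk19 and Ccnc. They were taken by name and not by measured value, though earlier results of these data were known when the members were chosen. They came to 33 genes, each with 1 row, among the 23697 loci of the table. Of these, 32 had a mean of at least 1 FPKM (fragments per kilobase of transcript and per total of mapped fragments) over the 4 libraries and were tested. The 1 that was not is Med12l, and Med29 at 3.04 FPKM was the lowest that was.

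The knockdown libraries, A and B, came from WW6 embryonic stem cells transiently transfected with small interfering RNA against Kdm5b, which encodes a demethylase of lysine 4 on histone H3. The control libraries, also A and B, came from WW6 cells that received small interfering RNA against GFP. All cells were of mixed C57/B6J, 129/Sv and SJL background and were grown without feeders on gelatin in medium with serum and leukemia inhibitory factor. The labels call the transfected material a construct, and the time between transfection and harvest is not given in the sources used here. Whether A and B were grown as separate cultures is not stated in the labels, so a p-value below reflects the spread among these libraries alone, and part of it may be technical.

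Mediator is built from a head and a middle module that contact the polymerase, a tail that meets activators, and a long scaffold subunit, Med14, that holds them together. A separable kinase module of Cdk8 or its paralogue Cdk19, cyclin C (Ccnc), Med12 or Med12l, and Med13 or Med13l docks on this core and controls whether the polymerase can join it. In embryonic stem cells Mediator is known for its high occupancy at the enhancers of pluripotency genes, where it meets cohesin and its loader Nipbl. Med27, Med28, Med29 and Med30 are assigned to the head in some accounts and to the tail in others, and are kept apart here as the head-tail boundary.

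Kdm5b itself (mm9 chromosome 1, 136456754 to 136529455) was at 22.7 and 31.1 FPKM in knockdown libraries A and B, against 99.7 and 145 FPKM in control libraries A and B. Its log2 fold change was -2.14 (standard error, SE, 0.30) on the log2(FPKM + 1) scale used throughout, which understates the change of low genes, and its limma adjusted p was 0.562. All 8 stem cell markers of the list, Pou5f1, Sox2 and Nanog among them, were at 26.8 FPKM or more in all 4 libraries, with summed levels, the largest part from Pou5f1, of 2858 and 2211 FPKM in knockdown and 2066 and 2591 FPKM in control libraries. Of these 8 markers 2 lay below both controls in both knockdown libraries, where 16.9% of all tested loci lay so, and limma called neither of them. Klf4 was at 29.3 and 26.8 FPKM in knockdown and 46.5 and 55.4 FPKM in control libraries (limma adjusted p = 0.918), and Esrrb at 107 and 121 FPKM in knockdown and 174 and 137 FPKM in control libraries. Markers of other cell types were low or uneven. Summed over 8 primitive endoderm markers the level was 3.64 and 3.24 FPKM in knockdown libraries and 11.9 and 17.0 FPKM in controls. Over 8 fibroblast markers it was 0.258 and 1.85 FPKM in knockdown libraries and 9.39 and 2.92 FPKM in controls, and 5, 1, 1 and 0 endoderm and 6, 4, 1 and 4 fibroblast markers were listed at 0 in knockdown A, knockdown B, control A and control B. Over 7 trophoblast markers, mostly Krt8, Krt18 and Tfap2c, it was 35.1 and 51.3 FPKM against 83.7 and 45.5 FPKM, with Elf5 at 0 in 3 libraries. In the endoderm sum Cubn was the largest part in controls, at 4.23 and 7.39 FPKM, against 0.272 and 0.338 FPKM in knockdown libraries. Of 4 endoderm markers tested, 3 lay below both controls in both knockdown libraries, where 16.9% of all tested loci lay so. These 3, Cubn, Dab2 and Gata4, had knockdown means of 0.305, 0.458 and 0.626 FPKM. They passed the filter at 1 FPKM only through the controls, which favours markers low in knockdown, so their count cannot be compared with that share. The other tested endoderm marker, Gata6, was at 2.32 and 0.0785 FPKM in knockdown and 1.81 and 2.09 FPKM in control libraries. Both knockdown libraries also lay below both controls for 2 of 4 trophoblast markers tested, Krt8 and Krt18, against 16.9% of all tested loci. They did so for 2 of 2 fibroblast markers tested, Acta2 and Thy1. With knockdown means of 0.545 and 0.252 FPKM, these fibroblast markers likewise passed the filter only through the controls. The part of all these markers in the Mediator values was not tested. Depth was estimated from the steps between low values, and knockdown A reached 78.7% of the depth of control B, against 99.6% for knockdown B and 102% for control A. Knockdown A also listed 11953 loci at 0, where the other libraries listed 8131 to 8609, so each result is given with its value in every library. The RNA is from bulk cultures, in which fewer cells of a type and less RNA per cell cannot be told apart.

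The Mediator genes were expressed throughout, at a median of 22.0 FPKM over the 33 members, and 28 of them had a mean of at least 10 FPKM. Among the 32 tested members the median was 22.9 FPKM, against 12.3 FPKM over the 11784 loci tested. FPKM is scaled by transcript length, and on that basis these levels are set side by side. The highest members, Med6, Med30, Med21 and Med10, had transcripts of only 1.00, 1.01, 0.814 and 0.913 kb. The part of length in the order of levels was not tested. Among the modules with several genes the head had the narrowest fold range, with mean levels between 24.0 and 73.2 FPKM. Med6, one of the most conserved head subunits, was the highest member of the complex, at 72.2 and 81.1 FPKM in knockdown and 66.7 and 72.6 FPKM in control libraries. The lowest head gene was Med22, which pairs with Med11 in the head, at 17.9 and 25.6 FPKM in knockdown and 32.9 and 19.7 FPKM in control libraries. Med20 (24.8 FPKM), Med11 (24.4 FPKM) and Med22 (24.0 FPKM) had means that lay closer together than their own libraries, so no order can be read among them.

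In the middle module the means ran between 10.0 and 49.3 FPKM. At the top was Med21, a small subunit that pairs with Med7, at 90.8 and 32.1 FPKM in knockdown libraries and 21.9 and 52.4 FPKM in controls. At the bottom was Med26, which links Mediator to elongation factors, at 9.48 and 10.4 FPKM in knockdown and 10.8 and 9.46 FPKM in control libraries. Med21 was thus the least stable of the middle genes and Med26 one of the steadiest. The scaffold gene Med14 lay in the lower part of the complex, at 8.67 and 10.7 FPKM in knockdown and 13.0 and 11.7 FPKM in control libraries. In the tail, Med24 led at 39.8 and 36.1 FPKM in knockdown and 36.2 and 34.7 FPKM in control libraries. Med15, which binds activators such as the sterol regulatory proteins, was the lowest tail gene, at 5.31 and 7.22 FPKM in knockdown and 8.73 and 5.54 FPKM in control libraries.

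The boundary subunits spanned a wider fold range than any module apart from the kinase module. Med30, a subunit known from animals and not from yeast, stood at 30.2 and 62.4 FPKM in knockdown and 52.6 and 63.6 FPKM in control libraries. Med29, the counterpart of Drosophila Intersex, stood at 2.77 and 1.92 FPKM in knockdown libraries and 3.11 and 4.37 FPKM in controls. By the estimated depths those Med29 values stand for only about 9.89 and 8.66 fragments in knockdown and 14.5 and 19.8 in control libraries. That makes Med29 the most thinly measured of the tested members with 1 transcript, for which the median was 169 and 180 fragments in knockdown and 192 and 196 in control libraries.

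**Figure D1:**
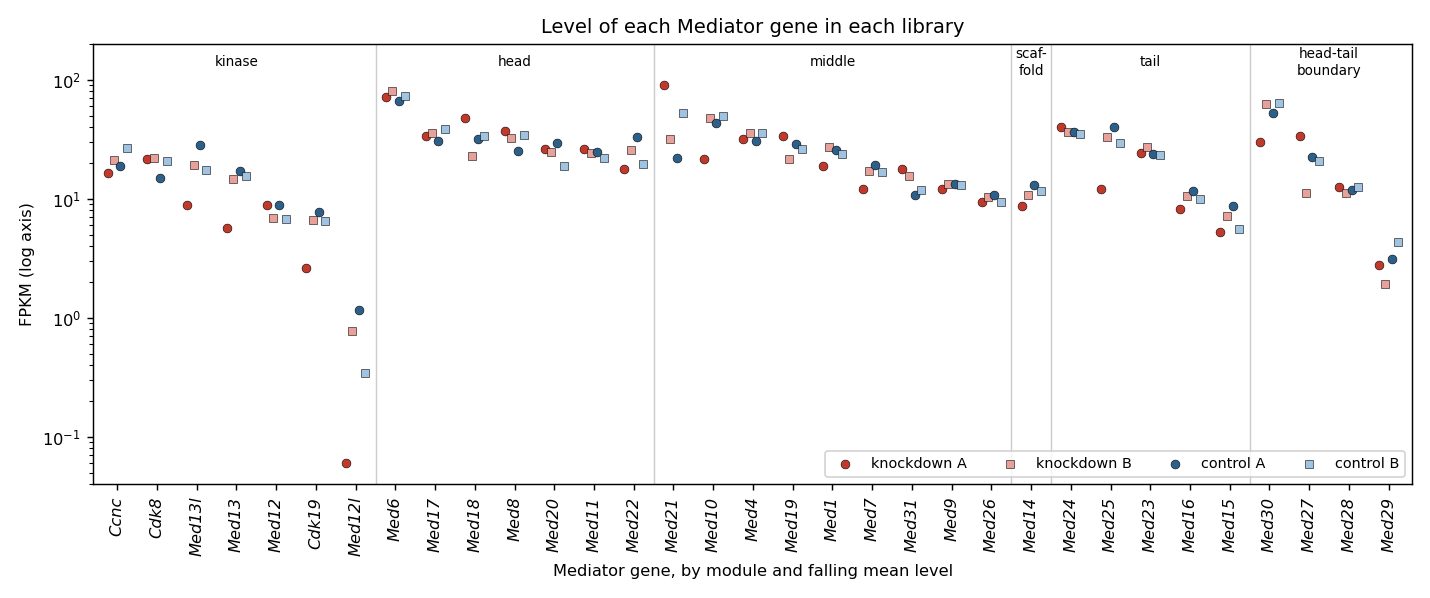
FPKM of each of the 33 Mediator genes in knockdown A and B and control A and B, on a log axis, ordered by module and by falling mean level. The head genes lie between about the level of Med22 (24.0 FPKM in the mean) and Med6 (73.2 FPKM), while Med12l (0.587 FPKM) lies below all other members.

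The comparison of knockdown with control cells asks whether loss of Kdm5b altered transcript levels, and for the Mediator genes no member passed the limma threshold. Of 32 tested members 0 were called in either direction at an adjusted p under 0.05, and 0 had an unadjusted limma p under 0.05. Over all tested loci the background was 0% called higher and 0.0339% called lower, and 0.967% higher and 1.49% lower at an unadjusted p under 0.05. The lowest limma adjusted p of any member was 0.918. Members divided into 13 with a log2 fold change above 0 and 19 below it, where 47.1% of all tested loci lay above and 52.9% below. Their median log2 fold change was -0.05, beside -0.03 over all tested loci. The median absolute log2 fold change was 0.17 over members and 0.29 over all tested loci. For 17 of the 32 the 95% interval stayed less than 1 log2 unit away from 0 on both sides, as it did for 32.8% of all tested loci. The median half-width of these unadjusted intervals was 0.75 log2 units. Larger changes could also miss the adjusted threshold, as that of Kdm5b did.

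**Figure D2:**
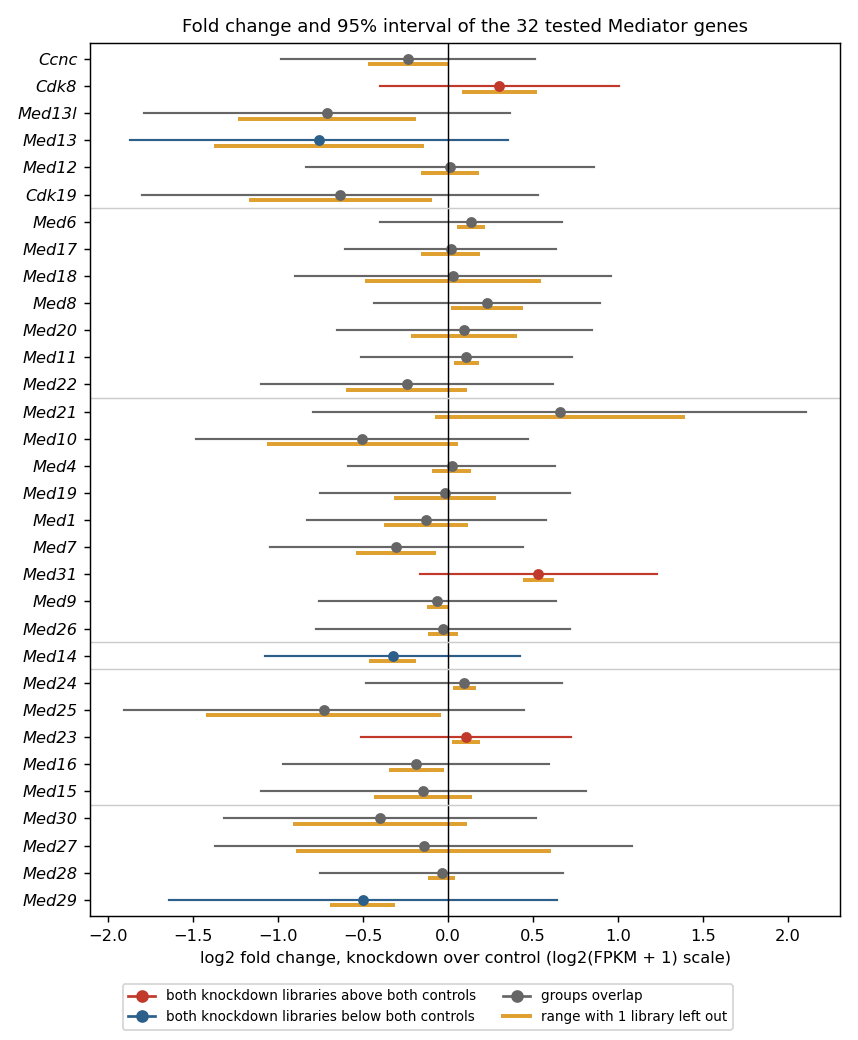
Log2 fold change of knockdown over control for the 32 tested Mediator genes on the log2(FPKM + 1) scale, with its 95% limma interval (line) and the range of the estimate with 1 library left out at a time (orange bar). Every interval includes 0, with points from -0.76 for Med13 to 0.66 for Med21, and colour marks the 3 genes whose knockdown libraries both lie above and the 3 whose knockdown libraries both lie below the controls.

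With 2 libraries against 2, the smallest 2-sided exact permutation p for a single gene is 0.333, so the ordering of the libraries is given as a description. Both knockdown libraries lay above both controls for 3 members and below both for 3, against 15% and 16.9% of all tested loci. The members' share was 9.38% in each direction, a gap of few genes from the background that was not tested. The higher ones were Med31, Cdk8 and Med23, the last of which was named after its values were seen. Med31, a small and highly conserved middle subunit (mm9 chromosome 11, 72025225 to 72031952), reached 17.9 and 15.7 FPKM in knockdown libraries and 10.8 and 11.8 FPKM in controls. The means were 16.8 ± 1.61 FPKM in knockdown and 11.3 ± 0.703 FPKM in control libraries (SD, n = 2 each). Its log2 fold change of 0.53 (SE 0.29, limma adjusted p = 0.918) stayed between 0.44 and 0.62 with any 1 library left out, the tightest range among the 8 members with the largest changes. The gene shares its interval with the locus 4930563E22Rik, which stood at 0 and 0.227 FPKM in knockdown and 0.222 and 0.0744 FPKM in control libraries. Med23, a tail subunit that receives signals through the transcription factor Elk1, stood at 24.0 and 27.0 FPKM in knockdown and 23.9 and 23.5 FPKM in control libraries. The gap between its groups was small, with a log2 fold change of 0.10 (SE 0.25).

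The lower ones were Med13, Med14 and Med29. Under upper-quartile scaling 1 member, Med31, was above both controls and 4 were below them, with Med28 added to these 3. With quantile normalization the lower ones were Med13, Med14 and Cdk19, without Med29, while the higher ones were the same 3 genes. The shares of all tested loci under these scalings are not given here, so the changed counts cannot be read as particular to the members. Med14 (mm9 chromosome X, 12252496 to 12339099) averaged 9.70 ± 1.45 FPKM in knockdown and 12.4 ± 0.92 FPKM in control libraries (SD, n = 2 each). Its log2 fold change was -0.32 (SE 0.31), between -0.46 without knockdown B and -0.19 without knockdown A. Med29 (mm9 chromosome 7, 29170265 to 29177709) had a log2 fold change of -0.50 (SE 0.47), between -0.69 and -0.31 with 1 library left out, on the few fragments given above. Med13 is described with the kinase module below. None of these differences exceeded the spread between libraries by the limma test.

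The members of the kinase module in falling order of mean level were Ccnc, Cdk8, Med13l, Med13, Med12, Cdk19 and Med12l. Cyclin C, the partner that activates the kinase, stood at 16.6 and 21.3 FPKM in knockdown and 18.9 and 26.5 FPKM in control libraries. Cdk8 (mm9 chromosome 5, 147043250 to 147114450) was at 21.7 and 22.0 FPKM in knockdown and 14.9 and 20.6 FPKM in control libraries. The knockdown libraries of Cdk8 were close together, and control A was the library that stood low. Its log2 fold change was 0.30 (SE 0.29), and it fell to 0.08 without control A. The paralogue Cdk19 (mm9 chromosome 10, 40069113 to 40203624) was at 2.59 and 6.58 FPKM in knockdown and 7.77 and 6.48 FPKM in control libraries. Here knockdown A alone was low, and knockdown B lay inside the control range. The log2 fold change of Cdk19 was -0.63 (SE 0.48), and -0.09 without knockdown A. Cdk19 thus made up 10.7% and 23.0% of the FPKM of the pair in knockdown A and B and 34.3% and 24.0% in control A and B, with Cdk8 the more abundant transcript by FPKM in all 4 libraries.

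Med13 and Med13l, alternative subunits that tether the kinase module to the core, moved together across the libraries. Med13 (mm9 chromosome 11, 86079216 to 86171027) was at 5.66 and 14.7 FPKM in knockdown and 17.0 and 15.6 FPKM in control libraries. Knockdown B missed the lower control by less than 1 FPKM, so most of the difference lay in knockdown A. Med13l (mm9 chromosome 5, 119010727 to 119215446) was at 8.87 and 19.3 FPKM in knockdown and 28.1 and 17.5 FPKM in control libraries. Its knockdown B value lay between the controls. The log2 fold changes were -0.76 for Med13 (SE 0.46) and -0.71 for Med13l (SE 0.44), and without knockdown A they were -0.14 and -0.19. Because both genes were low in the same library, the share of Med13l in the pair changed little, at 61.1% and 56.9% in knockdown and 62.3% and 52.9% in control libraries.

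Med12, the subunit that activates the kinase and is often mutated in human uterine leiomyoma, did not follow them. It stood at 8.83 and 6.95 FPKM in knockdown and 8.88 and 6.79 FPKM in control libraries, so both A libraries were higher than both B libraries. Its log2 fold change was 0.01 (SE 0.35), with a sign that turned to -0.06 under upper-quartile scaling. Med12l was the lowest member by FPKM, at 0.0602 and 0.772 FPKM in knockdown and 1.17 and 0.345 FPKM in control libraries. These stand for an estimated 2.15 and 34.9 fragments in knockdown and 54.4 and 15.6 in control libraries, so only knockdown A rests on a few fragments. The gene spans 6 other loci. Med12l made up 0.677% and 9.99% of the FPKM of the Med12 pair in knockdown and 11.7% and 4.84% in control libraries.

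**Figure D3:**
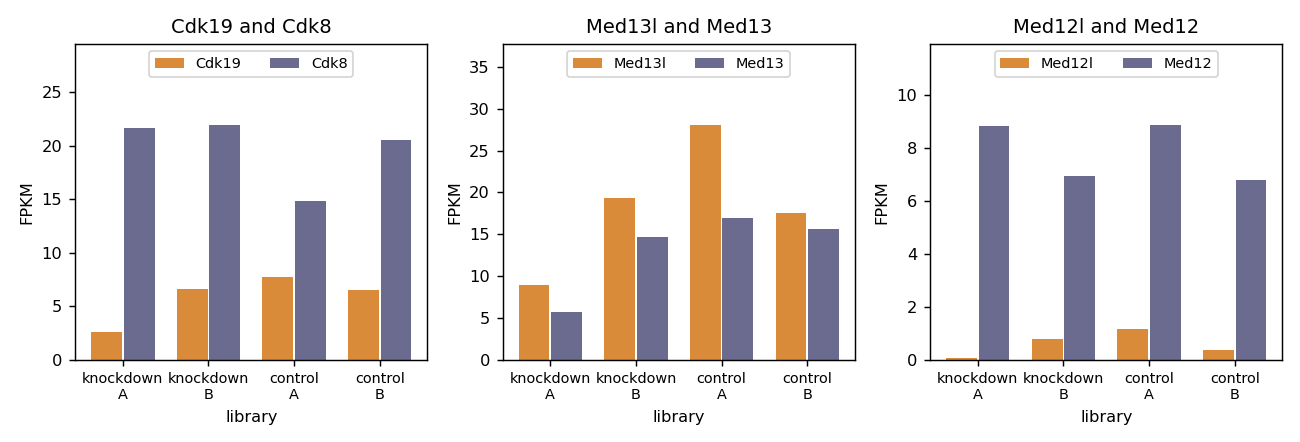
FPKM of the paralogous kinase module genes in knockdown A and B and control A and B, with bars that start at 0. Cdk19, both Med13 genes and Med12l are lowest in knockdown A (2.59 FPKM for Cdk19, 8.87 for Med13l, 5.66 for Med13 and 0.0602 for Med12l), while Cdk8 and Med12 are not.

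Summed over the 7 kinase module genes, the level was 64.3 FPKM in knockdown A and 91.6 FPKM in knockdown B, against 96.7 and 93.8 FPKM in control A and B. Knockdown A was also the lowest library for Med14 and for the sums of the boundary and the tail, each of which turned on 1 gene. The boundary summed to 78.8 and 86.6 FPKM in knockdown and 90.1 and 101 FPKM in control libraries, and the tail to 89.5 and 114 FPKM in knockdown and 120 and 103 FPKM in control libraries. Without Med30 the boundary summed to 48.6 and 24.2 FPKM in knockdown and 37.5 and 37.5 FPKM in control libraries, with knockdown A the highest. Without Med25 the tail summed to 77.4 and 80.9 FPKM in knockdown and 80.4 and 73.6 FPKM in control libraries, and knockdown A was no longer the lowest. In the sums of the head and the middle knockdown A was the highest library, in the head through Med18 and in the middle through Med21. Without Med18 the head summed to 213 and 224 FPKM in knockdown and 210 and 206 FPKM in control libraries, with knockdown B the highest. The head summed to 261 and 247 FPKM in knockdown and 241 and 240 FPKM in control libraries, and the middle to 248 and 221 FPKM in knockdown and 204 and 239 FPKM in control libraries. Without Med21 the middle summed to 157 and 189 FPKM in knockdown and 182 and 187 FPKM in control libraries, with knockdown A the lowest. The sum over all 33 members was 750 and 771 FPKM in knockdown and 765 and 788 FPKM in control libraries. By module, the log2 fold changes had a median of -0.44 in the kinase module (6 tested), 0.10 in the head (7), -0.03 in the middle (9), -0.15 in the tail (5) and -0.27 at the boundary (4). The kinase value was -0.12 without knockdown A and -0.79 without knockdown B. Without knockdown A the medians of the middle and the tail turned to 0.03 each, the head stood at 0.05 and the boundary at -0.40. Without knockdown B the boundary stood at -0.14, the tail at -0.34 and the middle at -0.09. The tail was at 0.12 without control A and -0.29 without control B, and the middle at -0.06 and -0.09. The module medians thus depended on single libraries.

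Transcript length moved with some of these values. On the log2(FPKM + 1) scale, 6 members were at least 2-fold lower in knockdown A than in knockdown B. Of these, Med13 and Med13l were long, with transcripts of 10.5 and 9.30 kb. Med10 and Med30 were short, at 0.913 and 1.01 kb, and Cdk19 and Med25 lay between. Med12, with a longer transcript than Cdk19, was not low in knockdown A. The 3 members at least 2-fold higher in knockdown A, Med18, Med21 and Med27, all had shorter transcripts than Med25. Over the 32 tested members the log2 transcript length correlated with the deviation of a library from the mean of the other 3 at Pearson's r = -0.44 in knockdown A and 0.28 in knockdown B, against 0.51 in control A and -0.11 in control B. Over the 11657 tested loci with a length it was 0.08 and -0.02 in knockdown and -0.01 and -0.11 in control libraries. These correlations are across genes measured in shared libraries, genes are not independent replicates, and the part of length in the Mediator values was not tested.

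The widest gaps among the members lay between the 2 knockdown libraries, the widest at Med27, while no group difference exceeded 0.76 in size. On the log2(FPKM + 1) scale, 9 of 32 members differed at least 2-fold between knockdown A and B, against 21.7% of all tested loci, and 1 differed so between the controls, against 7.2% of all tested loci. The 1 was Med21, at 52.4 FPKM in control B and 21.9 FPKM in control A. Of the 9, 6 were lower in knockdown A (Med13, Med13l, Cdk19, Med10, Med25 and Med30) and 3 were higher there (Med18, Med21 and Med27). Med25, a tail subunit with an activator-binding domain, stood at 12.1 and 33.2 FPKM in knockdown and 39.8 and 29.3 FPKM in control libraries. Med10, a conserved middle subunit, stood at 21.5 and 48.0 FPKM in knockdown and 43.1 and 49.4 FPKM in control libraries. For both genes knockdown A was the outlying library, and the log2 fold changes of -0.73 (SE 0.48) and -0.51 (SE 0.40) were -0.04 and 0.06 without it. The log2 fold change of Med21, at 0.66 (SE 0.59), ranged between -0.08 without knockdown A and 1.39 without knockdown B, and was 1.27 without control B.

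Both Med18 and Med27, named after their values were seen, went the other way in the 2 knockdown libraries. Med18, which forms a movable unit of the head with Med20, stood at 48.1 and 22.9 FPKM in knockdown and 31.7 and 33.6 FPKM in control libraries. Med27 stood at 33.4 and 11.2 FPKM in knockdown and 22.6 and 20.7 FPKM in control libraries. In both cases knockdown A lay above and knockdown B below the 2 controls, which stood close together, and the log2 fold changes were 0.03 (SE 0.38) and -0.14 (SE 0.50). Over all tested members knockdown A was the lowest of the 4 libraries at 14 and the highest at 8, against 38.4% and 33.2% of all tested loci. The median absolute difference between the knockdown libraries was 0.33 log2 units over members and 0.44 over all tested loci, and between the controls 0.20 and 0.32. A subset of members was steady in every library. Med24 was one, with a log2 fold change of 0.09 (SE 0.24), and Med6 another, with 0.13 (SE 0.22). The 11 members not described one by one (Med17, Med8, Med20, Med11, Med4, Med19, Med1, Med7, Med9, Med16 and Med28) had mean levels between 10.1 and 34.8 FPKM and log2 fold changes between -0.31 and 0.23, and without rescaling the groups overlapped for every one of them.

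**Figure D4:**
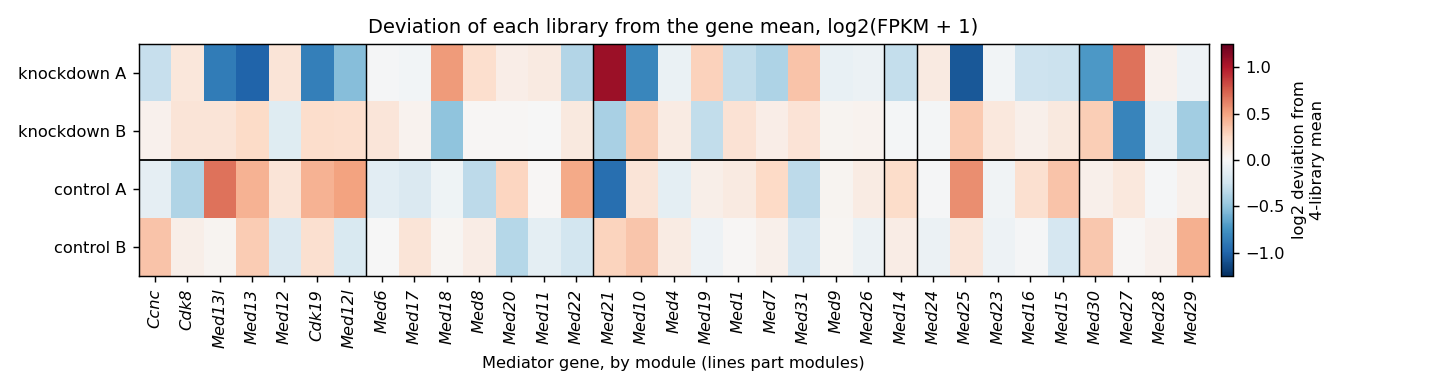
Deviation of each library from the 4-library mean of each Mediator gene, in log2(FPKM + 1) units, with knockdown libraries above control libraries and lines between modules. In knockdown A, Med13, Med13l, Cdk19, Med10, Med25 and Med30 are low and Med21, Med27 and Med18 are high. Control A also deviates, low for Med21 (-0.94) and high for Med13l (0.68) and Med25 (0.58). Knockdown B deviates most at Med27 and Med18.

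Promoter sequence was compared because Kdm5b acts on a histone mark of promoters, and the windows shown are those of the members whose groups did not overlap (Med23 is named only). The 250 bases upstream of the RefSeq start (GRCm38.p6, a later build than the mm9 of the expression table, given 5′ to 3′ on the strand of the gene) were read for 28 of 33 members. Capitals mark matches on either strand to the GC box GGGCGG, the letters CCAAT, the ETS core CCGGAAG, the E-box CACGTG, the letters TATAAA and the YY1 site AAGATGGC, and adjoining capitals may be overlapping matches.
Med31, chr11:72215593-72215842, - strand: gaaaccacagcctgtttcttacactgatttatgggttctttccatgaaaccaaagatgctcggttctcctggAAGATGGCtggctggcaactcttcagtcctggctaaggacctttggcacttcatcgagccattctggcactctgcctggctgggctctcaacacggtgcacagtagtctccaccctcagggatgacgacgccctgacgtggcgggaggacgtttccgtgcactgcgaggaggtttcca
Cdk8, chr5:146231000-146231249, + strand: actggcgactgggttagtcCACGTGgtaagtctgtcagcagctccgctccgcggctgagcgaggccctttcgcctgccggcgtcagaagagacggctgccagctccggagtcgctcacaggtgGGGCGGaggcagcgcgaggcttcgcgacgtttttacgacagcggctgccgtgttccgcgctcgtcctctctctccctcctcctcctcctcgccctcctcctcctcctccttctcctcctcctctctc
Med13, chr11:86357597-86357846, - strand: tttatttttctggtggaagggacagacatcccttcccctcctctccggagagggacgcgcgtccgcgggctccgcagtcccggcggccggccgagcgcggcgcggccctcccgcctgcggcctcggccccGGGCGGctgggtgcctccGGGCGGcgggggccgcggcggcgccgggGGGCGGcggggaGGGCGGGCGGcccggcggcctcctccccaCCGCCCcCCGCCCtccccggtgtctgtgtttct
Med14, chrX:12761974-12762223, - strand: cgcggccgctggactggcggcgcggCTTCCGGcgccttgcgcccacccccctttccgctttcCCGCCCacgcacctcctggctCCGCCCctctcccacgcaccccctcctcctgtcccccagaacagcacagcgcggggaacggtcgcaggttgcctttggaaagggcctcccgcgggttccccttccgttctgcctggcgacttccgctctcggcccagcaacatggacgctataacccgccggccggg
Med29, chr7:28392691-28392940, - strand: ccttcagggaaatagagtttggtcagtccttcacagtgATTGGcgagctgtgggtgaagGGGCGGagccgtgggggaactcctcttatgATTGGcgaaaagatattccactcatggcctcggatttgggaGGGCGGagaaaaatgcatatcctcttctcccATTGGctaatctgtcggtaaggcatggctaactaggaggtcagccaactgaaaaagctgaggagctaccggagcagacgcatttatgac

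The 5 windows differ in kind. Med13 held 7 GC boxes and 37 CpG dinucleotides, Med14 held 2 GC boxes and an ETS core among 28 CpG, and Cdk8 held 1 GC box and an E-box among 25 CpG. Med29 held 3 matches to CCAAT and 2 GC boxes with 9 CpG, and Med31 the YY1 letters and no GC box with 10 CpG. Over the 28 members the median was 18 CpG, against 16 for the promoters of tested loci and 6 for all 27025 promoters of the table. At least 10 CpG were found in 20 of the 28, against 77.2% of promoters of tested loci and 38.2% of all promoters. The median share of G and C was 56.8% for members, 60.4% for tested loci and 52% for all promoters. A GC box was found in 18 of 28 (64.3%), against 61.6% of promoters of tested loci and 32.9% of all promoters. The letters CCAAT were found in 11 (39.3%, against 37.4% and 34.5%), an ETS core in 4 (14.3%, against 14.9% and 7.05%) and TATAAA in 3 (10.7%, against 5.98% and 13.0%). The E-box letters were in 2 (7.14%, against 8.79% and 6.05%) and the YY1 letters in 1 (3.57%, against 2.16% and 1.59%). A match is a description of the letters only, and these shares carry no test.

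Other genes of the same transcription step were taken from 3 lists. None of the 7 cohesin and loader genes, 29 general transcription factor genes or 6 coactivator genes tested was called by limma, and 0 had an unadjusted p under 0.05. Their median log2 fold changes were -0.11, 0.05 and -0.01, beside -0.03 over all tested loci. Both knockdown libraries lay above both controls for 1, 6 and 1 of them and below for 0, 4 and 0, where 15% and 16.9% of all tested loci lay so. Among cohesin genes Rad21, the subunit that closes the ring, stood at 78.1 and 81.2 FPKM in knockdown and 59.8 and 63.0 FPKM in control libraries, a log2 fold change of 0.37 (SE 0.22). Stag2, a cohesin subunit that binds the ring, stood at 26.8 and 43.2 FPKM in knockdown and 46.3 and 39.9 FPKM in control libraries. Among general factors Ercc2, a helicase of TFIIH that shares its interval with another locus, stood at 11.2 and 11.7 FPKM in knockdown and 203 and 12.0 FPKM in control libraries, so control A alone set its log2 fold change of -2.05 (SE 1.17). Ccnh, the cyclin of the TFIIH kinase, stood at 0.851 and 20.7 FPKM in knockdown and 19.4 and 17.5 FPKM in control libraries, and again 1 library, knockdown A, stood apart. Of the coactivators, the acetyltransferase Ep300 stood at 4.14 and 16.7 FPKM in knockdown and 21.6 and 10.7 FPKM in control libraries, and the nuclear receptor coactivator Ncoa2 at 10.9 and 8.15 FPKM against 7.28 and 7.22 FPKM. The log2 fold change was -0.77 for Ep300 (SE 0.65) and 0.34 for Ncoa2 (SE 0.33).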

How the data were processed

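RNA for 2 knockdown and 2 control libraries was depleted of ribosomal RNA and made into strand-marked libraries, per the labels' protocols. The authors deposited 1 table of FPKM per locus and library, made with Cufflinks and Cuffdiff on the mm9 build, per the submitters' processing notes. No source used here gives versions, the aligner or the strand setting, so overlapping genes (7 members share an interval with another locus) may share fragments.

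Loci were named from RefSeq identifiers with a GRCm38.p6 table, used for names only, which together with GENCODE M21 for 126 loci left out of it (Med6 among them) gave 1 symbol to 23367 loci, several to 189 and none to 141. Coordinates of loci are those of the deposited table. Loci averaging 1 FPKM or more were tested on log2(FPKM + 1) with limma 3.58.1 in R 4.3.3 (group alone, eBayes with trend, Benjamini-Hochberg adjustment over 11784 loci, 2-sided, threshold 0.05). The fit was also run on simulated data in which all libraries varied alike. The knockdown libraries differed more than the controls here, so that run does not check the fit under the spread of these data. The rule for named genes took Kdm5b, called members, the 8 largest fold changes, the kinase module, Med14, the highest and lowest member of each other module, and the 2 largest changes of each linked list. The members, the lists and the rule were chosen with earlier results of these data known. FPKM carries no totals, so depth was estimated from steps between low values of loci with 1 transcript, of which 83.3% to 83.8% lay within 0.15 of a whole fragment, with transcript lengths from GENCODE M21. The step of each library was chosen to make this share highest, so the share does not check the estimate. The estimate used 335 low values in knockdown A, against 946 to 1141 in the other libraries. The estimated fragments carry no interval. Alternatives were another pseudocount, filters, scalings, eBayes without trend, a block for the replicate letter, leaving out each library, and summed rows of a symbol. Tables used pandas 2.3.3 and numpy 2.4.6 in Python 3.11.15, and figures matplotlib 3.10.9.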

Additional observations from a re-analysis of the deposited data

How the results depend on the processing

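No Mediator member was called by limma under any alternative run, with a lowest adjusted p of 0.0924 without knockdown replicate B and of at least 0.868 under the others. The log2 fold change kept its sign with 1 library left out at a time for 17 of the 32 tested members. For the other 15 it ranged between -0.16 and 0.18 for Med12, -0.49 and 0.55 for Med18, -0.60 and 0.11 for Med22, -0.079 and 1.39 for Med21, -1.07 and 0.056 for Med10, -0.38 and 0.12 for Med1, -0.12 and 0.060 for Med26, -0.43 and 0.14 for Med15, -0.91 and 0.11 for Med30, -0.16 and 0.19 for Med17, -0.093 and 0.13 for Med4, -0.32 and 0.28 for Med19, -0.89 and 0.61 for Med27, -0.12 and 0.039 for Med28, and -0.22 and 0.41 for Med20. Upper-quartile scaling turned the sign of Med12 (-0.059), Med17 (-0.062), Med18 (-0.049) and Med4 (-0.056), and left 1 member, in place of 3, with both knockdown libraries above both controls. The share of all tested loci placed so under that scaling is not given here. Quantile normalization turned the sign of Med26 (0.038) and Med28 (0.0099). The median over members ranged between -0.14 and 0.00036 with 1 library left out. The cause of these shifts was not tested.

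Over all loci the count called lower was 1 with no filter on low values, 2 with eBayes without trend and 0 to 264 with 1 library left out, and the count called higher was 0 to 43. The highest counts, 43 and 264, came without knockdown replicate B, when knockdown A stood alone for its group and was assumed to vary like the controls. Kdm5b ranged between -2.40 and -1.87 and was called only in that setting (limma adjusted p = 0.0404).

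The correlation between the groups of the A minus B differences was -0.07 over the tested loci. This cannot tell whether libraries of the same letter were handled together, which the labels do not state. With the replicate block 7 loci were called lower and 0 higher, and no Mediator member.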
